A study of Mus musculus with 6 samples.

Results

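The collagen gene family was taken as every gene on the array whose symbol has the form Col, a number, a and a number, such as Col1a1, and whose probe set is annotated to that gene alone. This gave 44 genes of the 19937 genes measured. By class they were 11 fibrillar collagens, 8 basement membrane collagens and 25 others. The basement membrane class here holds the 6 type IV chains and the multiplexins Col15a1 and Col18a1. Col6a5 and Col6a6 each had 2 probe sets, of which the brighter was used.

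RNA came from whole mammary tumours of 6 female FVBN mice carrying the MMTV-PyMT transgene, in which a viral promoter active in mammary epithelium drives the polyoma middle T oncoprotein. Age at the start was 75 to 90 days in both groups. In 3 mice the agent was TMP195, an inhibitor of class IIa histone deacetylases, given once daily into the peritoneum at 50 mg/kg. The other 3 mice received its vehicle, DMSO, by the same route, and the duration is stated as 5 days in one place and 2 weeks in another. Each tumour came from a different mouse, so the spread within a group is between animals. Values are array intensities on a log2 scale, and differences are TMP195 minus vehicle with the moderated standard error (SE) or 95% interval of limma, a linear model fitted to all genes together.

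Collagens are made of 3 chains wound into a helix, which are copies of 1 gene product in many types and products of different genes in others, such as types I, IV and VI. Fibroblasts secrete most fibrillar collagen, which forms the tensile fibres of breast stroma and of the dense matrix around mammary tumours. Type IV collagen forms the sheet that underlies epithelium, blood vessels, fat cells and muscle fibres. Type VI filaments tie cells to the fibres around them, and other members decorate fibrils or span the cell membrane. In a whole tumour, fewer cells of a type and less RNA per cell cannot be told apart.

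Column medians lay between 45.1 and 46.0 intensity units in TMP195 tumours and between 44.8 and 46.4 in vehicle tumours. TMP195 tumour 2 stood apart on the first principal component of all genes, which held 43.5% of the variance, and vehicle tumour 2 on the second, which held 24.1%. Luminal epithelial markers, which define the mammary epithelium, had list means between 10.39 and 10.50 in TMP195 tumours and between 10.36 and 10.51 in vehicle tumours, and all 8 were measured. Skeletal muscle markers averaged between 4.34 and 4.75 in TMP195 tumours, against 7.97 in vehicle tumour 2 and 4.42 and 4.22 in vehicle tumours 1 and 3.

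Promoter sequences are shown for 4 members with their lowest or highest value in TMP195 tumour 2. Col1a2 and Col3a1 were lowest in TMP195 tumour 2, whereas Col11a1 and Col4a6 were highest there. For Col1a2 the margin was small, with 10.14 there against 10.17 in vehicle tumour 2. The part of promoter letters in these values was not tested. The letters are from RefSeq, assembly GRCm38.p6, read 5′ to 3′ on the gene's own strand, and end at the base before an annotated start. Col11a1 ends where a longer transcript begins. Capitals mark the letters of a TATA box, a CCAAT box or a GC box, on either strand. Motifs were matched by letters alone, at any distance from the start, and TATAAA in Col3a1 lies at bases -117 to -112.
Col1a2, chr6:4505368-4505617, plus strand: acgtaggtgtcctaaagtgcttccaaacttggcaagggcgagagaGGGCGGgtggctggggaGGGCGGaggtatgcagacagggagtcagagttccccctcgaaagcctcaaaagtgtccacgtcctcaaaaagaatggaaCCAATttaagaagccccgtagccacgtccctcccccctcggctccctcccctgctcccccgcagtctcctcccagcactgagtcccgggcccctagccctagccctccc
Col3a1, chr1:45311288-45311537, plus strand: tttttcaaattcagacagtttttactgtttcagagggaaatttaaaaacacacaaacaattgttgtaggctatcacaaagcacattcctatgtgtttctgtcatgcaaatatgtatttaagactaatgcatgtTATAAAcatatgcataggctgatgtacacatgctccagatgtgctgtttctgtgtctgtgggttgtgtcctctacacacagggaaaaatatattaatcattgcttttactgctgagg
Col11a1, chr3:114030290-114030478, plus strand: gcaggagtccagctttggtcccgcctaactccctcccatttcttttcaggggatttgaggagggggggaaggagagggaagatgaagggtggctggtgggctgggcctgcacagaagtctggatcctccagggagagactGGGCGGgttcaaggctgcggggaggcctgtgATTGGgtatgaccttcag
Col4a6, chrX:141474077-141474326, minus strand: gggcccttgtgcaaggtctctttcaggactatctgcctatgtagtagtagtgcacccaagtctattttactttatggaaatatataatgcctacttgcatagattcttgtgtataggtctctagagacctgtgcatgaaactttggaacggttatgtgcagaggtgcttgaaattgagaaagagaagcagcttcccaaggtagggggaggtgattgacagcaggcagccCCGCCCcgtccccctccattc

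The Col3a1 stretch was 35.2% G and C, against 62.0% for Col1a2, 60.3% for Col11a1 and 47.6% for Col4a6. Of 38 windows of 250 bases upstream of 35 members, 22 held the GC box GGGCGG on either strand (57.9%), against 32.7% of all 32851 windows in the RefSeq table. The letters CCAAT were found in 13 (34.2%, against 33.8% of all windows). The letters of the TATA box, TATAAA, were found at any position in 5 (13.2%, against 12.4%). The site of MEF2, the transcription factor that class IIa deacetylases bind, was in 1 collagen window, that of Col13a1 (2.6%, against 2.9% of all windows). The AP-1 site TGANTCA was likewise in 1, that of Col6a1 (2.6%, against 6.7%). These motifs do not overlap one another in the stretches shown. Windows were not found for Col1a1, Col2a1, Col4a3, Col5a2, Col9a3, Col12a1, Col14a1, Col22a1 and Col26a1. Col4a1 and Col4a2 lie head to head: their windows of 300 bases, chr8:11312777-11313076 on the minus strand and chr8:11312555-11312854 on the plus strand, share 78 bases.

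The first comparison asked whether collagen transcripts differed in tumours of TMP195-dosed mice. None of the 44 collagens passed an adjusted p of 0.05 in limma with Benjamini-Hochberg adjustment over all 19937 genes, and their smallest adjusted p was 1.00. Of all genes, 0 (0%) passed. At an unadjusted p under 0.05 there were 0 collagens, where 2.52% of all genes lay, and the smallest unadjusted p among them was 0.07. The differences were above 0 in 24 collagens, where 49.5% of all genes were, and below 0 in 20, where 50.5% were. Their median was 0.012, against -0.0014 for all genes, and it turned to -0.0057 without TMP195 tumour 1 and -0.024 without vehicle tumour 2. Their magnitude was under 0.1 in 27 members and reached 1.5-fold in 1, Col11a1, where 1.28% of all genes reached it. The groups did not overlap in 3 members (6.82%), where 6.68% of all genes did not overlap.

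**Figure D1:**
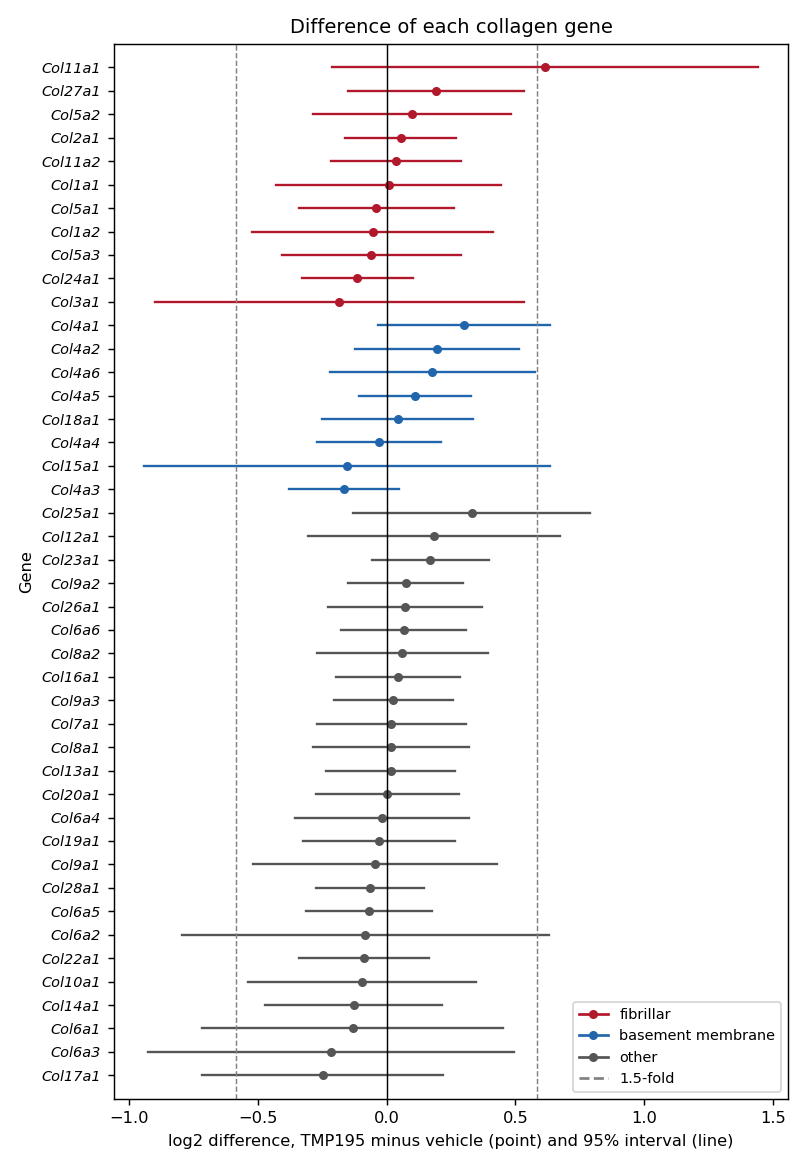
Difference of each of the 44 collagen genes, TMP195 minus vehicle in log2 units (points), with 95% intervals from limma (lines) and dashed lines at 1.5-fold either way; red is fibrillar, blue basement membrane and grey other. All 44 intervals include 0, and Col11a1 has the point farthest from it, at 0.61.

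The intervals say how large a difference these 6 arrays leave room for. Half-widths ran from 0.21 to 0.827 with a median of 0.31, against a median of 0.296 for all genes. For 34 of 44 members the whole interval lay within 1.5-fold either way. The 10 members whose interval reached further were Col11a1, Col3a1, Col4a1, Col15a1, Col6a1, Col6a2, Col6a3, Col12a1, Col17a1 and Col25a1. In 17 members (38.6%) no single tumour left out turned the sign, against 45% of all genes. Their differences were above 0 in 11, among them Col4a1, Col4a2, Col4a5, Col4a6, Col11a1 and Col25a1, and below 0 in 6, among them Col4a3, Col14a1 and Col17a1.

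Fibrillar collagens had a median difference of 0.0092, with 6 of 11 above 0. Leaving out TMP195 tumour 1, TMP195 tumour 3 or vehicle tumour 2 turned the median to -0.077, -0.015 and -0.11, and it was 0.090, 0.059 and 0.096 without TMP195 tumour 2, vehicle tumour 1 and vehicle tumour 3. Col1a1 and Col1a2 encode the chains of type I collagen, the main fibre of skin, tendon and breast stroma. Col1a1 measured 11.21, 10.76 and 11.06 in TMP195 tumours 1 to 3, against 11.10, 10.66 and 11.24 in vehicle tumours 1 to 3. Col1a2 measured 10.70, 10.14 and 10.44 in TMP195 tumours, against 10.49, 10.17 and 10.78 in vehicle tumours. In both genes the tumours numbered 2 were the lowest of their group and the groups overlapped throughout. The differences were 0.0092 for Col1a1 (95% interval -0.43 to 0.45) and -0.054 for Col1a2 (-0.52 to 0.42). Without vehicle tumour 2 Col1a1 was -0.16, without TMP195 tumour 1 it was -0.092 and without TMP195 tumour 3 it was -0.015, and Col1a2 was 0.090 without TMP195 tumour 2 and 0.096 without vehicle tumour 3.

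Col3a1, the single chain of type III collagen that mixes with type I in pliable tissue, spread more widely. It measured 10.31, 9.26 and 9.99 in TMP195 tumours, against 10.03, 9.64 and 10.43 in vehicle tumours. TMP195 tumour 2 was the lowest and vehicle tumour 3 the highest, so the difference of -0.18 ± 0.30 (SE) was smaller than the spread within either group. It turned to 0.11 without TMP195 tumour 2 and to 0.016 without vehicle tumour 3. Col5a1 and Col5a2, chains of type V collagen, which sets the diameter of type I fibrils, differed by -0.040 ± 0.13 (SE) and 0.10 ± 0.16. Col5a1 measured 6.84, 6.65 and 6.81 in TMP195 tumours, against 6.71, 6.67 and 7.04 in vehicle tumours. Col5a2 measured 7.94, 7.80 and 7.84 in TMP195 tumours, against 7.76, 7.44 and 8.08 in vehicle tumours. Their TMP195 values lay inside the range of the vehicle values apart from TMP195 tumour 2 in Col5a1, which lay just below it. Col5a1 was 0.020 without TMP195 tumour 2 and 0.075 without vehicle tumour 3, and Col5a2 was -0.058 without vehicle tumour 2.

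Col11a1 had the largest difference of the family in either direction. It encodes a chain of type XI collagen, a minor partner in cartilage fibrils that is also made by fibroblasts of desmoplastic tumours. Its values were 8.14, 9.30 and 8.62 in TMP195 tumours, against 8.54, 7.53 and 8.15 in vehicle tumours. TMP195 tumour 2 was the highest of all 6 and vehicle tumour 2 the lowest, while the remaining 4 lay between 8.14 and 8.62 without order by dosing. The difference was 0.61 ± 0.35 (SE), or 1.53-fold with a 95% interval of 0.863 to 2.71, at an unadjusted p of 0.123 in limma. It was 0.31 without TMP195 tumour 2, 0.34 without vehicle tumour 2 and 0.036 without both. Its partner gene Col11a2 differed by 0.036 and turned to -0.040 without vehicle tumour 2.

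Among the remaining fibrillar members, Col27a1 and Col24a1 encode chains of the XXVII and XXIV types, with known sites in cartilage and in bone. Col27a1 measured 6.07, 6.12 and 6.30 in TMP195 tumours, against 6.24, 5.75 and 5.93 in vehicle tumours. Col24a1 measured 5.14, 5.14 and 5.18 in TMP195 tumours, against 5.38, 5.23 and 5.19 in vehicle tumours. Every TMP195 tumour was below every vehicle tumour in Col24a1, with 5.18 against 5.19 at the closest, at a difference of -0.11 ± 0.09 (SE), whereas Col27a1 overlapped at 0.19 ± 0.14. Without vehicle tumour 2 Col27a1 was 0.081, and without vehicle tumour 1 Col24a1 was -0.058. Col2a1, the main cartilage collagen, kept to a narrow range, with 6.31, 6.27 and 6.36 in TMP195 tumours and 6.27, 6.16 and 6.34 in vehicle tumours. Col5a3 differed by -0.059.

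**Figure D2:**
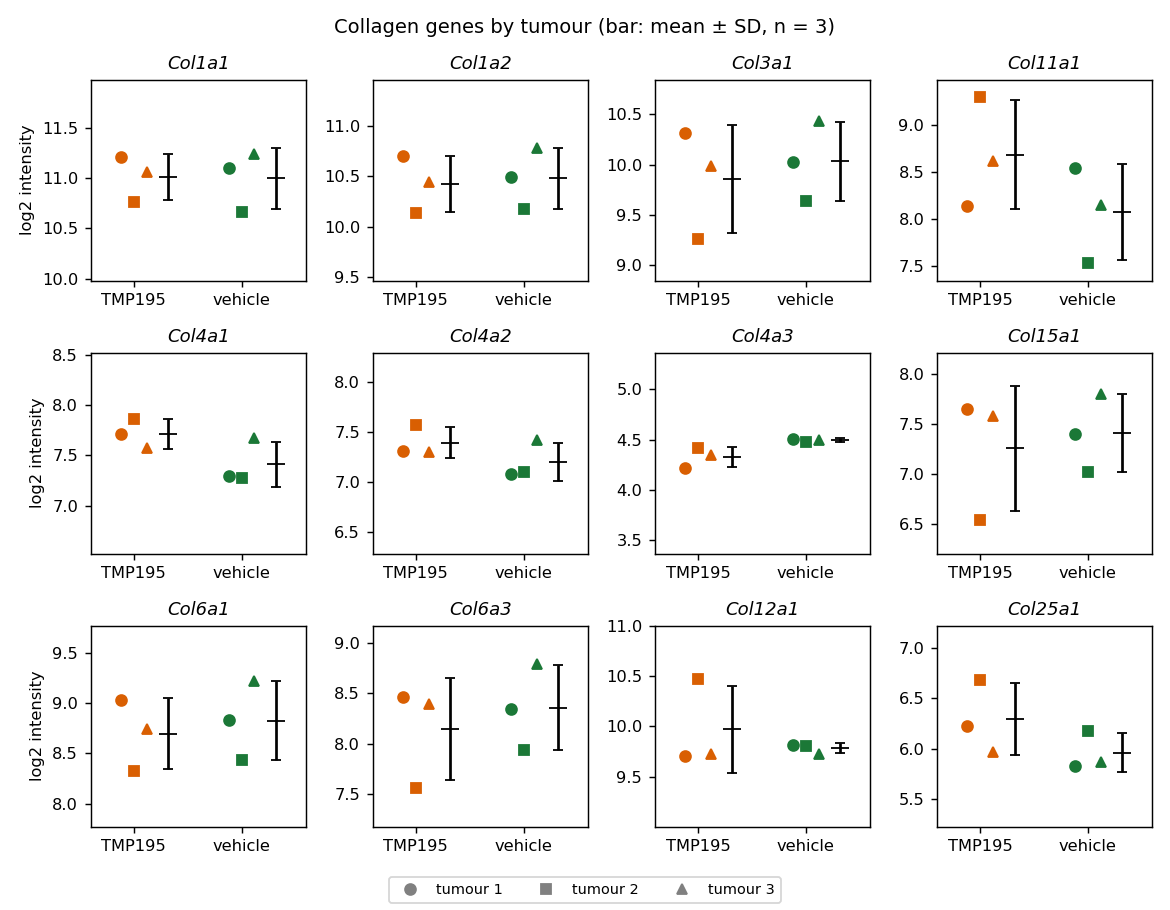
Log2 intensity of 12 collagen genes in each tumour, TMP195 left of vehicle; circles, squares and triangles are tumours 1, 2 and 3 of a group, and the bars are the mean ± SD of 3 tumours. Squares sit lowest in their group for Col1a1, Col1a2, Col3a1, Col15a1, Col6a1 and Col6a3, and the TMP195 square is the highest point for Col11a1, Col4a1, Col4a2, Col12a1 and Col25a1.

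Basement membrane collagens had the highest class median, 0.077, with 5 of 8 above 0. The class mean varied between tumours of a group with an SD of 0.084, larger than that median. With each tumour left out in turn the median stayed above 0, from 0.029 without vehicle tumour 2 to 0.12 without vehicle tumour 3. It was 0.026 without both tumours numbered 2. Col4a1 and Col4a2, the neighbouring genes whose products form the common type IV heterotrimer, were both above 0, and Col4a1 had the smallest unadjusted p of the family. Col4a1 measured 7.71, 7.86 and 7.57 in TMP195 tumours, against 7.29, 7.27 and 7.67 in vehicle tumours. Col4a2 measured 7.31, 7.57 and 7.30 in TMP195 tumours, against 7.08, 7.10 and 7.42 in vehicle tumours. In both genes vehicle tumour 3 reached into the TMP195 range and vehicle tumours 1 and 2 lay below all TMP195 tumours. Col4a1 averaged 7.71 ± 0.14 in TMP195 tumours and 7.41 ± 0.23 in vehicle tumours (SD, n = 3 each). The difference was 0.30 ± 0.14 (SE), or 1.23-fold with an interval of 0.978 to 1.55. Leaving out each tumour in turn gave values from 0.23 without TMP195 tumour 2 to 0.43 without vehicle tumour 3, and 0.16 without both tumours numbered 2. Col4a2 differed by 0.20 ± 0.13 (SE), and by 0.11 without TMP195 tumour 2, 0.31 without vehicle tumour 3 and 0.057 without both tumours numbered 2. With array weights, which give less weight to arrays far from the rest, Col4a1 was 0.14, Col4a2 0.048 and the class median 0.034.

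The X-linked pair Col4a5 and Col4a6, which together form the type IV network of smooth muscle and some epithelia, lay above 0 too. Col4a5 measured 7.47, 7.62 and 7.57 in TMP195 tumours, against 7.45, 7.37 and 7.52 in vehicle tumours. Col4a6 measured 7.05, 7.56 and 7.06 in TMP195 tumours, against 6.85, 7.13 and 7.15 in vehicle tumours. TMP195 tumour 2 was the highest in both, and the groups overlapped. Col4a5 differed by 0.11 ± 0.09 (SE). Col4a6 differed by 0.18 ± 0.17 (SE), and by 0.0099 without TMP195 tumour 2 and 0.081 without vehicle tumour 1.

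Col4a3 and Col4a4, known from the filtering membrane of the kidney and head-to-head neighbours themselves, did not share that direction. Col4a3 measured 4.22, 4.42 and 4.35 in TMP195 tumours, against 4.51, 4.48 and 4.50 in vehicle tumours. All TMP195 tumours were below all vehicle tumours, at a difference of -0.16 ± 0.09 (SE), which was larger than the SD of either group, 0.099 and 0.017, but did not pass the test. Groups that do not overlap with TMP195 lower were found in 3.21% of all genes and in 2 collagens, Col4a3 and Col24a1. Col4a3 was dim, at percentile 34.9 of mean intensity, and Col4a4 differed by -0.030.

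The multiplexins Col15a1 and Col18a1 sit where basement membranes meet stroma, and Col18a1 carries the antiangiogenic fragment endostatin. Col15a1 measured 7.65, 6.54 and 7.58 in TMP195 tumours, against 7.40, 7.02 and 7.80 in vehicle tumours. Its lowest values were those of TMP195 tumour 2 and vehicle tumour 2, as in the fibrillar Col3a1. The difference was -0.15 ± 0.33 (SE), and it turned to 0.21 without TMP195 tumour 2 and 0.045 without vehicle tumour 3. Col18a1 measured 6.14, 6.38 and 6.01 in TMP195 tumours, against 6.14, 6.02 and 6.24 in vehicle tumours. It was highest in TMP195 tumour 2 and differed by 0.044 ± 0.12 (SE), with -0.058 without that tumour and -0.014 without vehicle tumour 2.

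**Figure D3:**
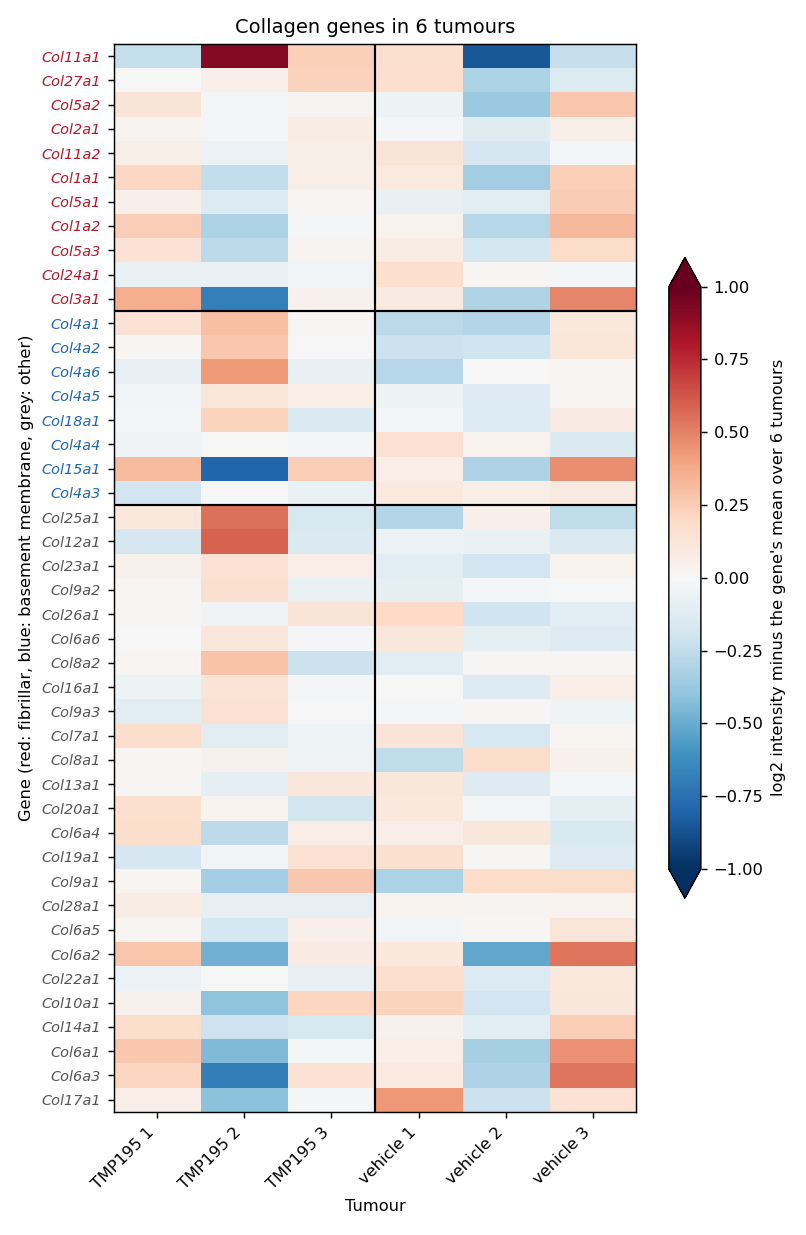
Log2 intensity of each collagen gene minus that gene's mean over the 6 tumours (colour, red above and blue below), with TMP195 tumours left of the line and genes grouped by class. In TMP195 tumour 2, 13 genes have their highest value (29.5%, against 25.4% of all genes) and 15 their lowest (34.1%, against 22.4%). Vehicle tumour 2 also holds 15 lowest values (34.1%, against 18.7%).

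The 25 other collagens had a median difference of 0.0024, with 13 above 0, and it turned to -0.063, -0.035 and -0.014 without TMP195 tumour 1, TMP195 tumour 3 and vehicle tumour 2. Type VI collagen, the beaded filament that Col6a1, Col6a2 and Col6a3 build and that fat cells and fibroblasts produce in abundance, repeated the pattern of Col3a1. Col6a1 measured 9.03, 8.32 and 8.74 in TMP195 tumours, against 8.83, 8.43 and 9.22 in vehicle tumours. Col6a2 measured 8.56, 7.80 and 8.36 in TMP195 tumours, against 8.39, 7.76 and 8.82 in vehicle tumours. Col6a3 measured 8.47, 7.56 and 8.40 in TMP195 tumours, against 8.35, 7.94 and 8.79 in vehicle tumours. All 3 genes were lowest in both tumours numbered 2 and highest in vehicle tumour 3. The differences were -0.13 ± 0.25, -0.082 ± 0.30 and -0.22 ± 0.30 (SE), and without TMP195 tumour 2 they turned to 0.059, 0.14 and 0.075. Without vehicle tumour 3 they were 0.065, 0.16 and -0.00060. The remaining type VI chains Col6a4, Col6a5 and Col6a6 differed by -0.018, -0.069 and 0.067, and a second probe set of Col6a5 gave 0.28 ± 0.27 (SE).

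Fibril-associated collagens bind the surface of type I fibrils, and Col12a1 and Col14a1 are those typical of stroma under tension. Col12a1 measured 9.71, 10.47 and 9.73 in TMP195 tumours, against 9.82, 9.81 and 9.73 in vehicle tumours. TMP195 tumour 2 stood alone above the other 5, which lay between 9.71 and 9.82. The difference of 0.18 ± 0.21 (SE) became -0.065 without it. Col14a1 measured 7.91, 7.53 and 7.57 in TMP195 tumours, against 7.78, 7.63 and 7.98 in vehicle tumours, a difference of -0.13 ± 0.14 (SE) that was -0.033 without vehicle tumour 3. Its lowest value was again that of TMP195 tumour 2. Col22a1, a collagen of muscle and tendon junctions, measured 4.76, 4.82 and 4.74 in TMP195 tumours, against 4.99, 4.68 and 4.92 in vehicle tumours. The difference of Col22a1 was -0.088 ± 0.11 (SE). Col22a1 was dim, at percentile 39.5 of mean intensity, with a range of 0.31 across the 6 tumours. Its value in vehicle tumour 2, where skeletal muscle markers were high, was the lowest of the 6. The part of muscle in the values of Col22a1 was not tested.

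The type IX genes Col9a1, Col9a2 and Col9a3, known for the surface of cartilage fibrils, differed by -0.044, 0.074 and 0.026. Col9a1 measured between 9.46 and 10.07 in TMP195 tumours and between 9.49 and 9.99 in vehicle tumours. The list mean of cartilage markers was 3.69, 4.13 and 3.95 in TMP195 tumours and 3.91, 3.64 and 3.59 in vehicle tumours. TMP195 tumour 2 held the highest value of 3 of the 7. The chondrocyte membrane protein Cnmd was 7.06 there and 6.28 in vehicle tumour 1. Other markers went differently: Matn1, at 2.87, and Hapln1 were lower there than in TMP195 tumours 1 and 3. Acan and Matn3 were 3.69 and 3.32 there and highest in vehicle tumours, at 3.83 and 3.35. Hapln1 had the smallest unadjusted p of the list, 0.0191 in limma, at 0.47 ± 0.15 (SE), and did not pass an adjusted p of 0.05. It measured 2.29, 1.94 and 2.54 in TMP195 tumours, against 1.73, 1.83 and 1.81 in vehicle tumours, at percentile 6.18 of mean intensity. Of the cartilage markers, 4 of 7 lay below the 30th percentile of mean intensity.

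Membrane-spanning collagens gave the largest differences of the other class in each direction. Col25a1, which encodes a neuronal collagen found in amyloid plaques, measured 6.23, 6.68 and 5.97 in TMP195 tumours, against 5.83, 6.18 and 5.87 in vehicle tumours. TMP195 tumour 2 was again the highest and the groups overlapped. The difference of Col25a1 was 0.33 ± 0.19 (SE), with 0.14 without TMP195 tumour 2 and 0.49 without TMP195 tumour 3. Col23a1 measured 5.41, 5.51 and 5.43 in TMP195 tumours, against 5.26, 5.17 and 5.40 in vehicle tumours. It was the only collagen with every TMP195 tumour above every vehicle tumour, at 0.17 ± 0.10 (SE), where 3.47% of all genes did not overlap with TMP195 higher. Col17a1, the hemidesmosome collagen that anchors basal epithelial cells, measured 6.17, 5.69 and 6.08 in TMP195 tumours, against 6.54, 5.89 and 6.25 in vehicle tumours. The difference of Col17a1 was -0.25 ± 0.20 (SE), and it was -0.089 without vehicle tumour 1, -0.10 without TMP195 tumour 2 and -0.42 without vehicle tumour 2. Beside it stood the myoepithelial markers, basal cells of the mammary duct, which averaged 7.03, 6.83 and 6.89 in TMP195 tumours and 7.17, 6.64 and 7.20 in vehicle tumours. Their part in the value of Col17a1 was not tested.

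The remaining 10 members of the other class included the short-chain network genes Col8a1, Col8a2 and Col10a1, at 0.016, 0.062 and -0.095, and the anchoring fibril gene Col7a1, at 0.019. Col16a1, Col19a1, Col20a1, Col13a1, Col26a1 and Col28a1 lay between -0.063 and 0.071. Of all 44 members, Col6a4 and Col19a1 were the 2 below the 30th percentile of mean intensity.

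The second comparison was between tumours, whatever their dosing. Of 11 fibrillar collagens, 5 (45.5%) were at their lowest in TMP195 tumour 2, where 22.4% of all genes were. Another 6 (54.5%) were at their lowest in vehicle tumour 2, where 18.7% of all genes were. These 2 tumours differed in Col11a1, which was highest in TMP195 tumour 2 and lowest in vehicle tumour 2. Basement membrane collagens were at their highest in TMP195 tumour 2 in 5 of 8 genes, where 25.4% of all genes were. Vehicle tumour 3 held the highest value of 6 of 11 fibrillar genes, against 10.5% of all genes. These shares describe single tumours, and the members share arrays and cells. Across the 6 tumours the widest ranges were those of Col11a1 (1.77), Col15a1 (1.26), Col6a3 (1.23), Col3a1 (1.17) and Col6a2 (1.05), where the median range was 0.44 in collagens and 0.42 in all genes.

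Stromal markers were set beside the fibrillar and type VI genes. Fibroblast markers averaged 6.88, 6.11 and 6.33 in TMP195 tumours and 6.57, 6.34 and 7.04 in vehicle tumours, and 11 of 11 differed by less than 0, with a median of -0.11 that turned to 0.058 without vehicle tumour 3. Among them Dpt, a matrix protein that binds decorin, differed by -0.73 ± 0.55 (SE) and Fap, a protease of activated fibroblasts, by -0.37 ± 0.26. Without TMP195 tumour 2 they were -0.29 and -0.12, and without vehicle tumour 3 -0.32 and -0.18. Adipocyte markers averaged 7.76, 4.84 and 5.95 in TMP195 tumours, against 5.95 in vehicle tumour 2, 8.43 in vehicle tumour 3 and a value between these in vehicle tumour 1, with 9 of 9 below 0 and a median of -0.92 that was -0.10 without TMP195 tumour 2 and -0.12 without vehicle tumour 3. The list means of type VI collagen were 6.91, 6.43 and 6.80 in TMP195 tumours and 6.82, 6.56 and 6.98 in vehicle tumours. TMP195 tumour 3 and vehicle tumour 2 had fibroblast means of 6.33 and 6.34, and both had an adipocyte mean of 5.95. Their fibrillar means were 7.60 and 7.26, their type VI means 6.80 and 6.56 and their skeletal muscle means 4.75 and 7.97. The cause of these differences was not tested. Lep, the fat cell hormone leptin, had the smallest unadjusted p of the adipocyte list, 0.0376 in limma, at -1.01 ± 0.40 (SE). It measured 3.38, 3.37 and 3.12 in TMP195 tumours, against 4.71, 3.30 and 4.89 in vehicle tumours, so the groups overlapped. Lep was dim, at percentile 26.9 of mean intensity, and was -0.72 without vehicle tumour 3 and -1.51 without vehicle tumour 2. The part of the cells these lists mark in the low values of Col3a1, Col6a1, Col6a2, Col6a3 and Col15a1 was not tested. No member of these marker lists passed an adjusted p of 0.05 in limma, where 0% of all genes passed.

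Vascular markers were set beside the type IV genes. Blood endothelial markers averaged 6.63, 6.53 and 6.48 in TMP195 tumours and 6.51, 6.31 and 6.59 in vehicle tumours, with 7 of 10 above 0 and a median of 0.12 that was 0.041 without vehicle tumour 2, 0.21 without vehicle tumour 3 and 0.024 without both tumours numbered 2. Kdr, the main receptor of the growth factor VEGF on endothelium, differed by 0.19 ± 0.11 (SE), Cldn5, a junction protein of vessels, by 0.21 ± 0.13 and Vwf, a clotting protein of vessels, by -0.27 ± 0.17. Pericyte markers averaged 6.75, 6.89 and 6.64 in TMP195 tumours and 6.74, 6.65 and 6.79 in vehicle tumours, with 4 of 8 above 0. Type IV collagen averaged 6.41, 6.63 and 6.43 in TMP195 tumours and 6.34, 6.35 and 6.48 in vehicle tumours. Vehicle tumour 3 was the highest of its group in all 3 lists. The part of vascular cells in the type IV values was not tested.

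**Figure D4:**
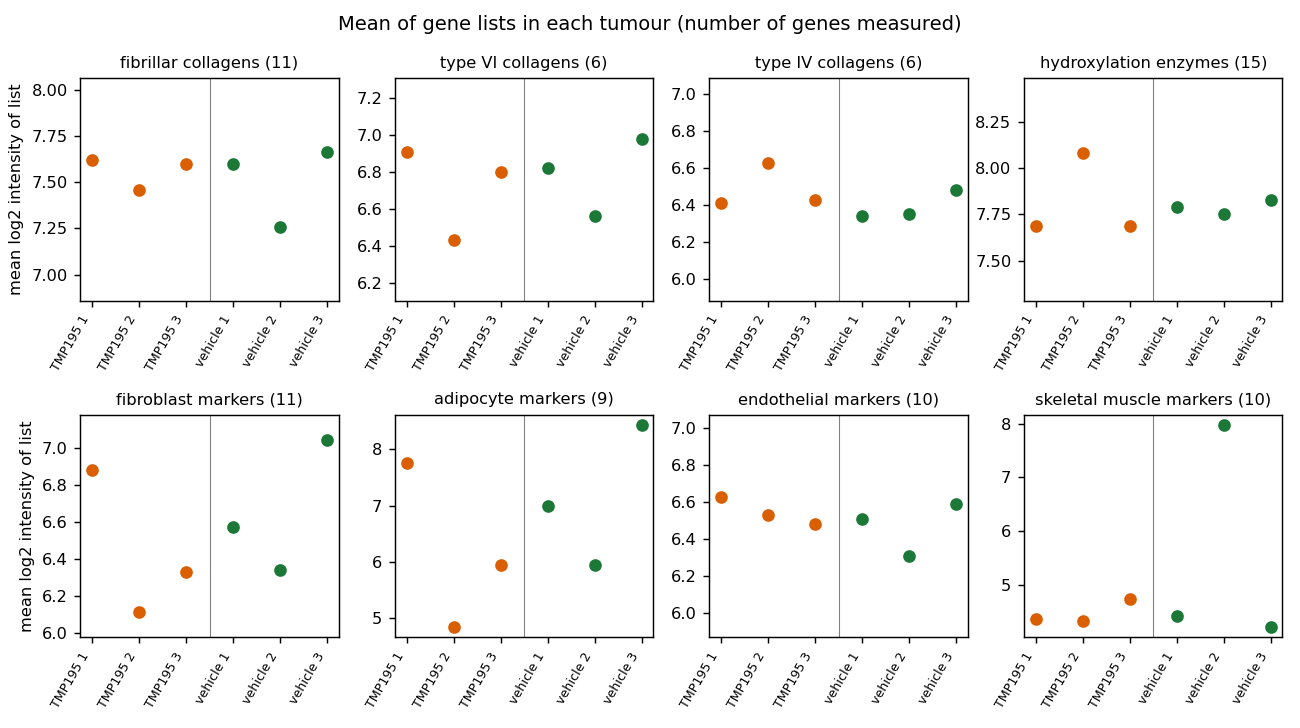
Mean log2 intensity of 8 gene lists in each tumour (points), TMP195 left of the line and vehicle right of it, with the number of genes measured in brackets; vertical scales differ. TMP195 tumour 2 is lowest for type VI collagens, fibroblast and adipocyte markers. It is highest for type IV collagens and the panel headed hydroxylation enzymes, whose list also holds genes other than the hydroxylases.

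The machinery that makes, assembles and binds collagen was described from 6 gene lists. The list of proline and lysine hydroxylation, which the helix needs to fold and to be cross-linked, also held genes other than the hydroxylases. It was above 0 in 10 of 15 members, and its median of 0.040 turned to -0.024 without TMP195 tumour 2. Plod2, which makes the hydroxylysine of stiff cross-links, measured 7.07, 8.16 and 7.63 in TMP195 tumours, against 7.20, 7.39 and 7.31 in vehicle tumours. P4ha1, a catalytic subunit of prolyl hydroxylase, measured 7.43, 8.29 and 7.57 in TMP195 tumours, against 7.50, 7.54 and 7.69 in vehicle tumours. Both were highest in TMP195 tumour 2, the tumour in which Col3a1 and Col6a3 were lowest, and differed by 0.32 ± 0.26 and 0.19 ± 0.22 (SE). Without TMP195 tumour 2 they were 0.046 and -0.076. P4ha2, another such subunit, measured 5.89, 5.75 and 5.90 in TMP195 tumours, against 5.93, 6.81 and 6.23 in vehicle tumours. Its groups did not overlap, at -0.47 ± 0.21 (SE) and an unadjusted p of 0.0629 in limma, and without vehicle tumour 2 it was -0.23.

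Genes for folding and export were above 0 in 7 of 8 members with a median of 0.069 that was 0.040 without TMP195 tumour 1 or without vehicle tumour 1. Among them the collagen chaperone Serpinh1 differed by 0.17 ± 0.12 (SE), and by 0.051 without TMP195 tumour 2. Propeptide-cleaving genes were above 0 in 5 of 7, with the type II procollagen protease Adamts3 at 0.56 ± 0.28. It was 0.31 without TMP195 tumour 2, 0.32 without vehicle tumour 2 and 0.076 without both. The cross-linking oxidases were above 0 in 1 of 4, Loxl3, at 0.35 ± 0.32, which turned to -0.036 without TMP195 tumour 2. Loxl4 was -0.24 ± 0.14, and -0.12 without vehicle tumour 1. Lox itself was -0.094 ± 0.15, turning to 0.020 without TMP195 tumour 2 and 0.039 without vehicle tumour 3. Fibril-binding proteins were above 0 in 3 of 9, with the small proteoglycan Ogn at -0.44 ± 0.27 and decorin, Dcn, at -0.27 ± 0.30. Ogn was -0.21 without vehicle tumour 3, and Dcn was -0.0036 without TMP195 tumour 2 and -0.079 without vehicle tumour 3. Collagen receptors were above 0 in 4 of 9. Itga1, which pairs with Itgb1 as a receptor of type IV collagen, differed by 0.18 ± 0.11 and by 0.12 without vehicle tumour 2, and the tyrosine kinase receptors Ddr1 and Ddr2 by -0.042 ± 0.11 and -0.099 ± 0.20. Ddr1 turned to 0.0069 without TMP195 tumour 2 and 0.033 without vehicle tumour 2, and Ddr2 to 0.015 without TMP195 tumour 3 and 0.067 without vehicle tumour 3. None of these 52 genes passed an adjusted p of 0.05 in limma, where 0% of all genes passed. At an unadjusted p under 0.05 in limma there were 0 of the 52, where 2.52% of all genes lay.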

How the data were processed

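Total RNA from 6 whole tumours was labelled with biotin and hybridised to Affymetrix arrays, per the labels' protocols. The deposited table holds 1 linear intensity per probe set and tumour, judged linear from the range of the values because the scale is not stated. Per the submitters' processing notes, the authors used RMA and Affymetrix Power Tools; their versions were not given in the sources used here. RMA sets all arrays to 1 distribution, so a shift shared by most transcripts would not be seen, and bright and dim probe sets respond unequally. The number of arrays, 3 a group, limits the precision.

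Of 27359 probe sets, 21784 had 1 gene symbol in the platform annotation, 1620 had several and 3955 had none. Probe sets with 1 symbol were kept, and each of the 19937 genes was represented by its row with the highest mean. Intensities were taken to log2 with no added constant and fitted in limma 3.58.1 (R 4.3.3, lmFit and eBayes, two-sided), TMP195 minus vehicle, with Benjamini-Hochberg adjustment over all genes. The same code was tested on simulated data with known answers. That run checked the code and not the power at differences as small as those of most collagens. Figures were drawn with matplotlib 3.10.9 under Python 3.11.15, and tables were joined with pandas 2.3.3. Promoter windows came from RefSeq. An exact permutation test of 3 against 3 tumours cannot go below 0.1.

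The members, classes and lists were chosen with earlier results of these data known. Values by tumour are given for 15 chosen members, for the 6 of each class with the smallest unadjusted p and for the 3 with the largest difference in each direction. The rule for every other list allowed up to 4 genes with the smallest unadjusted p, plus Serpinh1, P4ha1, Lox, Ddr1 and Ddr2. Fewer than 4 are named in most lists, and which of them was decided after their values were seen. Alternatives were another scaling, prior, filter on dim genes, choice of probe set, array weights, the tumour number as a block and leaving out tumours.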

Additional observations from a re-analysis of the deposited data

How the results depend on the processing

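No collagen and no other gene passed an adjusted p of 0.05 in limma under any alternative run, nor at a threshold of 0.1, and 502 genes had an unadjusted p under 0.05. That count ran from 243 of 13956 genes with dim genes left out to 936 of 19937 with array weights. Array weights give arrays far from the rest less weight. The smallest adjusted p of any gene was 0.159, without both tumours numbered 2. Over all genes, same-numbered tumours did not deviate together (correlations -0.212, -0.063 and -0.097), and the numbers were not taken as pairs. With deviations taken within groups of 3 tumours, these correlations cannot exclude a factor shared by number. With the replicate block, 397 genes had an unadjusted p under 0.05, 1 of them a collagen, and the collagen median stayed 0.0124. Median centring and array weights also gave 1 collagen at that threshold. So did leaving out TMP195 tumour 1, TMP195 tumour 3, vehicle tumour 1 or vehicle tumour 3. The collagens above 0 numbered 17 without vehicle tumour 2 and 31 without vehicle tumour 3, of 44. Median centring moved the median of all genes to 0.0135 and cyclic loess to -0.0001.

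Array weights turned the sign of 10 members: Col1a1 to -0.037, Col5a2 to -0.029, Col4a4 to 0.029, Col18a1 to -0.071, Col6a4 to 0.13, Col8a1 to -0.0081, Col8a2 to -0.040, Col9a1 to 0.0057, Col16a1 to -0.032 and Col19a1 to 0.049. They also gave 0.14 for Col4a1, 0.048 for Col4a2, 0.039 for Col4a6, 0.39 for Col11a1 and 0.062 for Col12a1, with medians of -0.0029 for all collagens, -0.037 for fibrillar and 0.034 for basement membrane genes. Without both tumours numbered 2 the family median was -0.025. Col6a5 was 0.10 as the mean of its probe sets and 0.28 by the dimmer one. The cause was not tested.

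Leaving out 1 tumour, or both numbered 2, turned the sign of the members that follow, and the cause was not tested. Among fibrillar genes the values ran from -0.16 to 0.13 for Col1a1, -0.21 to 0.096 for Col1a2, -0.41 to 0.11 for Col3a1, -0.11 to 0.075 for Col5a1, -0.058 to 0.26 for Col5a2, -0.16 to 0.058 for Col5a3 and -0.040 to 0.11 for Col11a2. Among basement membrane genes they ran from -0.11 to 0.038 for Col4a4, -0.35 to 0.21 for Col15a1 and -0.11 to 0.13 for Col18a1. Among type VI genes they ran from -0.33 to 0.065 for Col6a1, -0.36 to 0.16 for Col6a2, -0.43 to 0.075 for Col6a3, -0.11 to 0.17 for Col6a4, -0.11 to 0.0053 for Col6a5 and -0.00090 to 0.14 for Col6a6. The fibril-associated genes gave -0.21 to 0.20 for Col9a1, -0.042 to 0.088 for Col9a3, -0.065 to 0.31 for Col12a1, -0.070 to 0.091 for Col16a1, -0.11 to 0.049 for Col19a1 and -0.074 to 0.095 for Col20a1. The rest gave -0.066 to 0.087 for Col7a1, -0.11 to 0.11 for Col8a1, -0.067 to 0.19 for Col8a2, -0.23 to 0.083 for Col10a1, -0.045 to 0.076 for Col13a1 and -0.014 to 0.19 for Col26a1.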
